A study of Homo sapiens with 21 samples.

Results

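The 10 histone deacetylase genes HDAC1 to HDAC10 were examined for binding of estrogen receptor beta (ER-beta, the product of ESR2). The cells were MDA-MB-231, a triple-negative breast cancer line, carrying an ER-beta gene that doxycycline switches on. Whether they are 1 clone is not given in the sources used here. Binding had been mapped by ChIP-seq with the Flag M2 antibody. All cells were grown with doxycycline at 100 ng/ml, which per the sample titles lasted 24 h, and then received 1 nM estradiol, LY500307 or ethanol vehicle for 3 h. The dose of LY500307, an ER-beta-selective agonist, is 1 nM in the titles and 10 nM in the sample characteristics. Each treatment had 4 ChIP and 3 input libraries (21 in all) and 1 deposited list of enriched regions, taken here as a pool. A region was counted for a gene when its summit, the point of highest signal, lay within 50 kb of the gene body. By this rule 33 of 26861 estradiol regions, 21 of 10045 LY500307 regions and 16 of 2905 ethanol regions belonged to the family, 70 of 39811 in all. The genes were chosen by the positions of the regions, namely their lying in coding exons of HDAC7, with results of these lists known. Position, rank and sharing are therefore descriptions without a test. Lists of single libraries were not analysed here, so the values carry no error over replicates and treatments were not compared by a test.

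Histone deacetylases remove acetyl groups from lysines of histones and other proteins and mostly act as corepressors of transcription. HDAC1, HDAC2 and HDAC3 are the catalytic subunits of nuclear corepressor complexes, and estrogen receptors can recruit such complexes in the absence of an agonist. HDAC4, HDAC5, HDAC7 and HDAC9 form class IIa, which bind MEF2 transcription factors through their N-terminal part and leave the nucleus when bound by 14-3-3 proteins. HDAC6, a largely cytoplasmic enzyme, deacetylates tubulin, and HDAC10 acts on polyamines. The assay reads DNA fragments that map to these genes, and it says nothing of their expression.

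HDAC7 differed from the other members in where its regions lay, the pattern it was chosen for. The regions in its gene body lay over its coding exons, and they were more numerous with LY500307 and ethanol than with estradiol. Printed first are the 3 exons that hold the summits of highest fold in the ethanol list, followed by an exon without a region. All run 5′ to 3′ on the minus strand of hg38, the coding strand of HDAC7. Exon letters are in capitals and 15 bases of each neighbouring intron are in lower case. With estradiol the regions covered 91.8% of exon 13 and 98.0% of exon 11. Each intron end reads ag before and gt after the exon, as do the ends of all 25 introns of the canonical transcript, so that the capitals mark what remains after splicing.
HDAC7 exon 13 (chr12:47793354-47793603, covered in all 3 lists): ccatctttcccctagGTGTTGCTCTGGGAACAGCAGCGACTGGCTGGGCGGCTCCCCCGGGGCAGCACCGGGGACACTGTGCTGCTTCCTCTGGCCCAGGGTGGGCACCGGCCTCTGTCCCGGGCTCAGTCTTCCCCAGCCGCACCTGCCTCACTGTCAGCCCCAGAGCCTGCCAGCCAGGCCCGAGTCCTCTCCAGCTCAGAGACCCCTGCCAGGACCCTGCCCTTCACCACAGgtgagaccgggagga
HDAC7 exon 11 (chr12:47795169-47795395, covered in all 3 lists): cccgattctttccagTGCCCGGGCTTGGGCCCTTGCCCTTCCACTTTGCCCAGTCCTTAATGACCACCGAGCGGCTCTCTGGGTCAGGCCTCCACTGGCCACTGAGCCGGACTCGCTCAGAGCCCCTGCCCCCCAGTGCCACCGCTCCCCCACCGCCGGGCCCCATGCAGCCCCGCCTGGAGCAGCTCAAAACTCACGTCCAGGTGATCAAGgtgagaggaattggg
HDAC7 exon 7 (chr12:47797002-47797157, covered with LY500307 and ethanol): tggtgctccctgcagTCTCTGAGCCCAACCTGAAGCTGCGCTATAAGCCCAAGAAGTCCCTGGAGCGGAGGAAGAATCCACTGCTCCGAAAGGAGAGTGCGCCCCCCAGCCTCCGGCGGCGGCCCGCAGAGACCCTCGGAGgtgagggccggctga
HDAC7 exon 2 (chr12:47802209-47802289, covered in no list): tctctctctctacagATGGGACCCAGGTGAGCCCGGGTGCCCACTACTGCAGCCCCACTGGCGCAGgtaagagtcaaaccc

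At least 1 region lay within 50 kb of 9 members with estradiol, of 8 with LY500307 and of 4 with ethanol. Of all 19689 protein-coding genes, 74.4% had such a region with estradiol, 49.0% with LY500307 and 22.7% with ethanol. The windows differ in size, from 106 kb for HDAC10 to 1015 kb for HDAC9, and these shares were not compared by a test. HDAC8, a class I enzyme, had no region in any list. HDAC7 held 6 of the 33 estradiol regions, 9 of the 21 LY500307 regions and 13 of the 16 ethanol regions. Per 100 kb of window, HDAC7 had 3.99 regions with estradiol, 5.98 with LY500307 and 8.64 with ethanol. With estradiol HDAC1 was denser than HDAC7, at 4.95 regions per 100 kb, and HDAC10 was close to it at 3.77. The next densest member had 2.12 with LY500307 and 0.706 with ethanol, in both cases HDAC1.

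**Figure D1:**
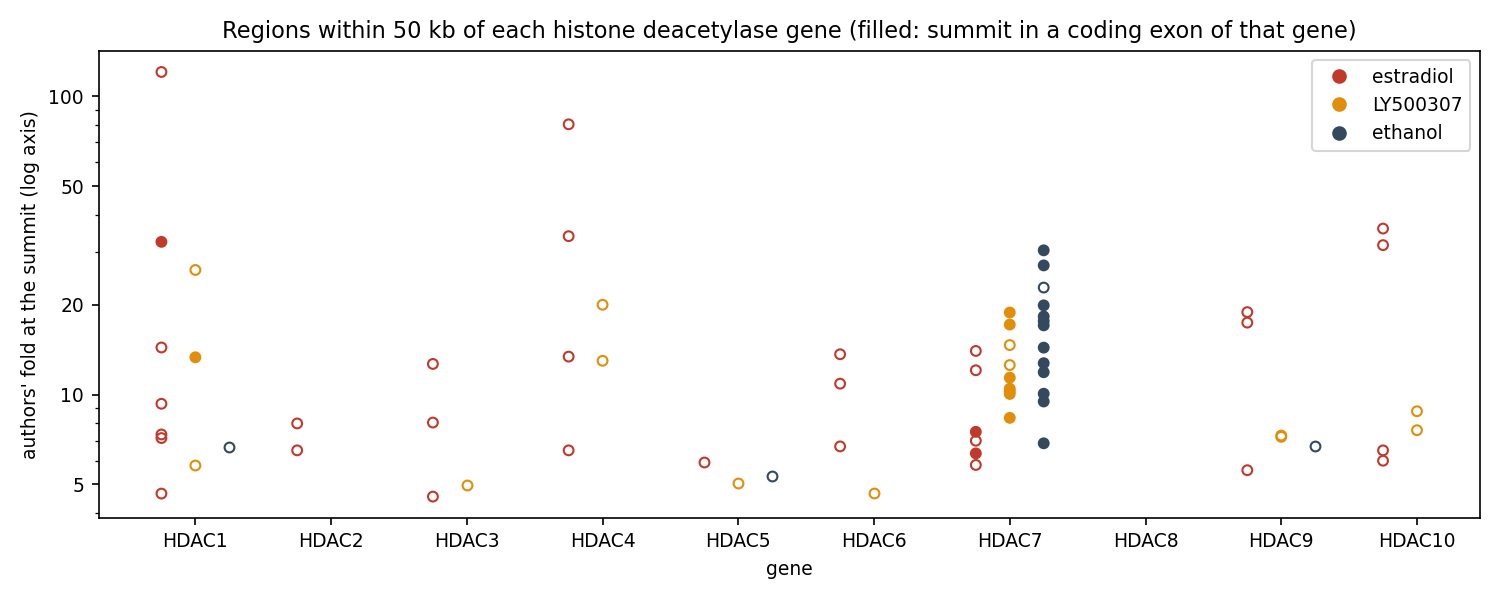
Fold of each region within 50 kb of the 10 genes (vertical log axis, the authors' enrichment over local background), by gene and treatment, 1 point per region. Filled points have their summit in a coding exon of the gene; they gather at HDAC7 with LY500307 (7 of 9 regions) and ethanol (12 of 13), while the highest folds elsewhere are estradiol regions at HDAC1 (120.6) and HDAC4 (80.5).

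In the HDAC7 gene body there were 2 estradiol regions, 9 LY500307 regions and 13 ethanol regions. All of them touched coding exons, and none lay wholly in an intron or a UTR. The fold is the authors' enrichment over local background, and because each pool was scaled on its own, folds in different lists stand side by side without measuring a change. The fold was highest over exon 13 in both lists that had many regions. There it was 6.35 with estradiol (chr12:47793365-47793570), 18.8 with LY500307 (chr12:47793287-47793656) and 30.4 with ethanol (chr12:47793270-47793692). By fold this region ranked 20602 in the estradiol list, 1920 in the LY500307 list and 77 in the ethanol list. In the ethanol list it thus stood within the highest 2.65% of regions, and in the estradiol list within the highest 76.7%.

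A single wide region spanned exons 10 to 12 with both LY500307 and ethanol. Its fold was 17.2 with LY500307 (chr12:47794711-47795830) and 27.1 with ethanol (chr12:47794672-47795871). With estradiol a region of 212 bp remained over exon 11 alone (chr12:47795188-47795399), with a fold of 7.50. Exons 3 and 4, separated by an intron of 132 bp, shared a region with a fold of 14.6 with LY500307 (chr12:47798466-47798989) and 22.8 with ethanol (chr12:47798435-47799018). Its summit fell in the short intron in both lists. Exons 6 and 7 shared a region with a fold of 10.0 with LY500307 (chr12:47796958-47797508) and 19.9 with ethanol (chr12:47796931-47797613). The estradiol list had no region at exons 3, 4, 6 or 7.

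Towards the 3′ end of the gene the pattern went on. Exons 14 and 15 lay under a region with a fold of 12.6 with LY500307 (chr12:47791596-47792082) and 11.9 with ethanol (chr12:47791478-47792065). This was the 1 site of 9 shared by both lists at which the LY500307 fold was not the lower of the pair. Its ethanol summit, in exon 14, also lay in the promoter window of a short internal transcript. Exons 20 and 21 had a fold of 8.35 with LY500307 (chr12:47787723-47788145) and 17.6 with ethanol (chr12:47787612-47788259). Exon 22 had a fold of 10.5 with LY500307 (chr12:47786484-47786782) and 14.4 with ethanol (chr12:47786485-47786811). At exon 23 the fold was 11.4 with LY500307 (chr12:47785655-47785999) and 17.1 with ethanol (chr12:47785265-47785969), where the region also took in exon 24. At exon 25 it was 10.3 with LY500307 (chr12:47783939-47784235) and 18.3 with ethanol (chr12:47783961-47784306).

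Exons 5, 8, 17 and the pair 18 and 19 had a region with ethanol alone. Their folds were 12.7 (chr12:47797997-47798334), 9.48 (chr12:47796107-47796414), 10.1 (chr12:47789702-47789927) and 6.86 (chr12:47789129-47789571). These 4 sites included the 3 lowest ethanol folds in the gene, and the fold at exon 5 exceeded that at exons 14 and 15. Over the 9 sites seen in both lists, LY500307 fold and ethanol fold had a Pearson correlation of 0.80 and a Spearman correlation of 0.48. These are neighbouring sites of 1 gene in 2 pools, so the coefficients describe the locus and carry no p.

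**Figure D2:**
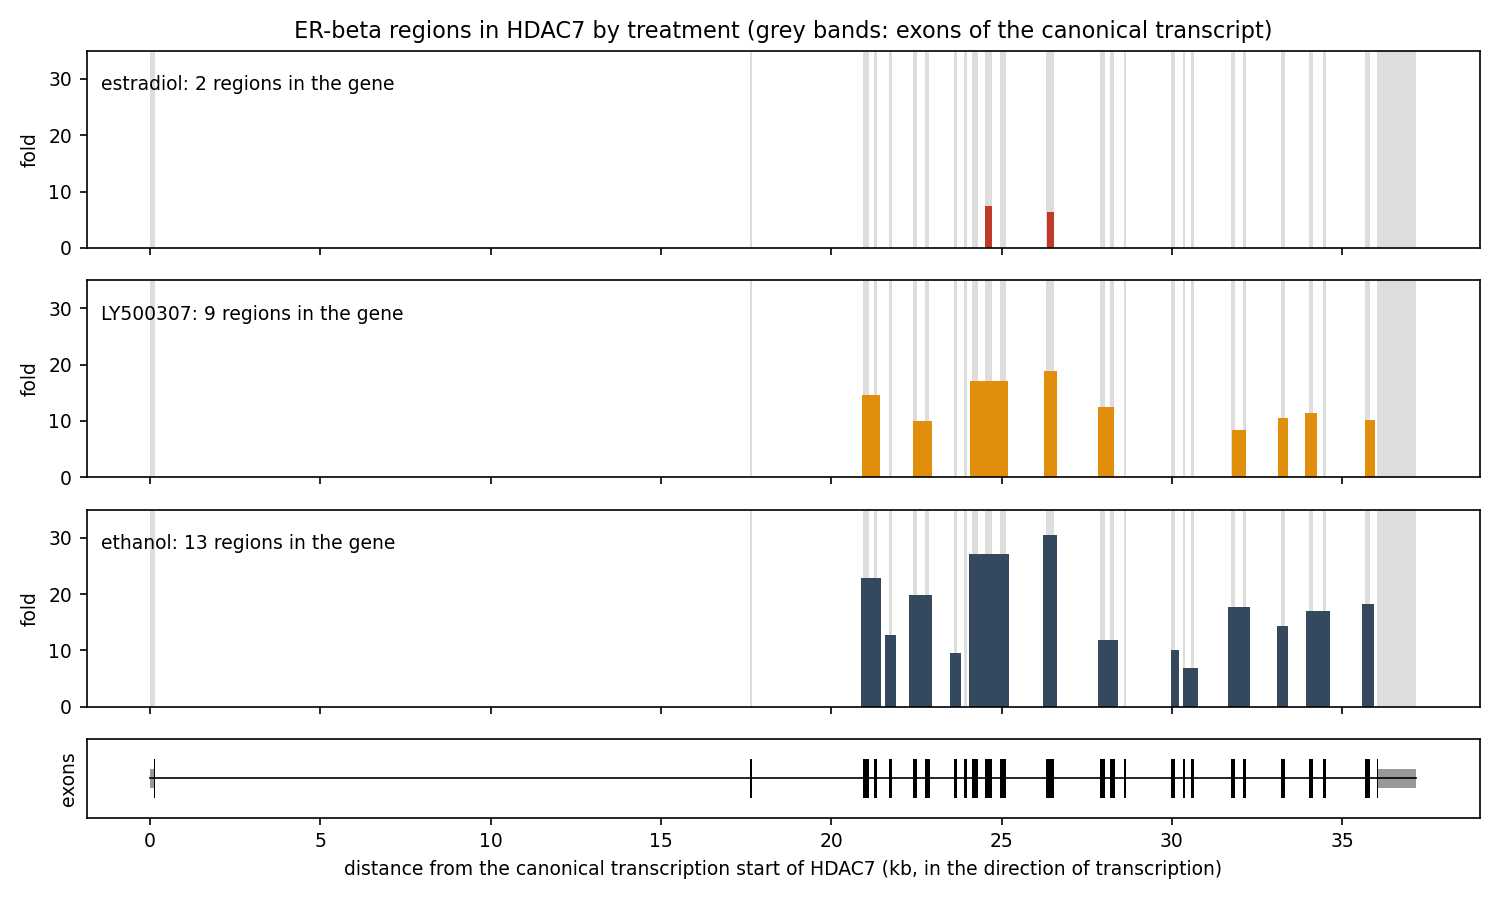
Regions in the HDAC7 gene with estradiol, LY500307 and ethanol (top to bottom), drawn to scale by distance from the canonical transcription start; bar width is region width and bar height the authors' fold. Grey bands are exons, and in the lowest panel black marks coding and grey untranslated parts. The 2 estradiol, 9 LY500307 and 13 ethanol regions stand on exons 3 to 25, while intron 1 and the long last exon are bare.

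The canonical HDAC7 transcript has 26 coding exons with 2973 coding bases. Regions touched 2 of these exons with estradiol, 15 with LY500307 and 21 with ethanol. They covered 13.3% of the coding bases with estradiol, 71.2% with LY500307 and 90.5% with ethanol. Of its 32969 intron bases they covered 0.0698%, 6.97% and 12.5% in the same order. None of its 1240 untranslated bases was covered in any list. The 5 exons that no ethanol region touched were exons 1 and 2 at the 5′ end, exons 9 and 16, and exon 26, which holds 43 coding bases before the stop codon and the 3′ UTR. Intron 1, which is 17492 bp long, had no covered base in any list.

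Most edges of the regions lay a short way outside the edges of the exons. From the outer exon edge to the region edge the median distance was 102 bp with ethanol (-7 to 132 bp, 13 regions) and 65.5 bp with LY500307 (-19 to 140 bp, 9 regions). Negative values mean that the region stopped inside the exon. With estradiol the edges of the 2 regions lay -18 to 19 bp from those of the exon. Some short introns lay wholly under a region: introns 3, 6, 10, 11, 14 and 20, of 132 to 250 bp, were covered in full with both LY500307 and ethanol. Other introns of like length were not. Intron 9 (138 bp) was covered to 45.7% with LY500307 and 75.4% with ethanol, and intron 25 (192 bp) to 72.9% and 61.5% in the same order. Introns 8 (190 bp), 17 (234 bp) and 18 (174 bp) were at 0% with LY500307 and at 52.6%, 47.4% and 100% with ethanol. Fold and the number of coding bases in a region had a Spearman correlation of 0.48 over the 9 LY500307 regions and 0.71 over the 13 ethanol regions. For fold and GC content at the summit the Spearman correlations were 0.73 and 0.34 in the same order. GC content, exon length and region width were not separated from each other. These regions are neighbours in 1 gene, so the coefficients are descriptions and carry no p.

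**Figure D3:**
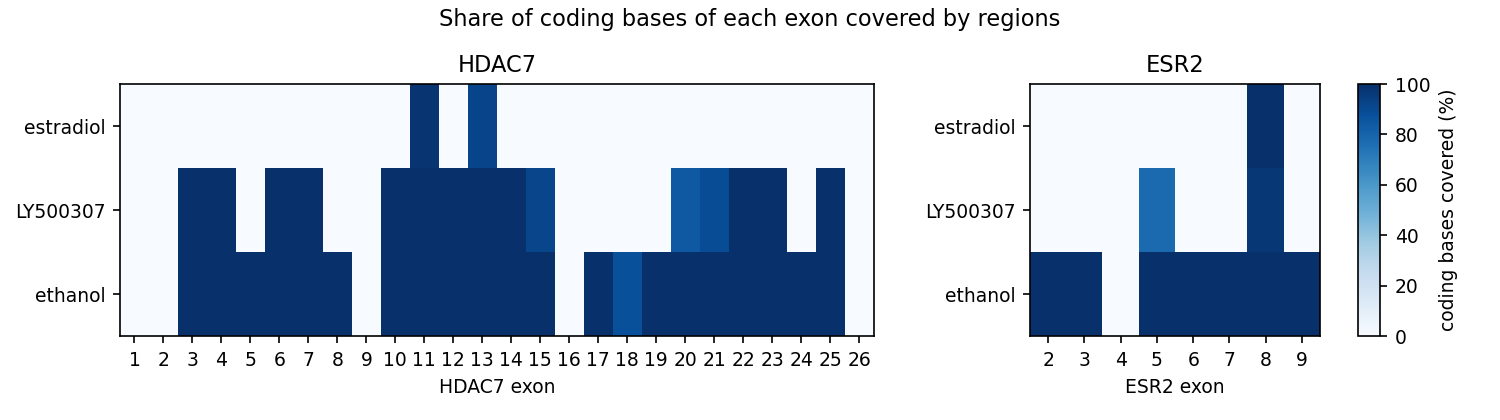
Share of the coding bases of each exon covered by regions (colour, 0 to 100%), for the coding exons of HDAC7 (left) and ESR2 (right), with estradiol, LY500307 and ethanol from top to bottom. In HDAC7 2, 15 and 21 exons are touched, and in ESR2 1, 2 and 7 exons.

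The exon pattern of HDAC7 was set against the other members. Of the regions assigned to HDAC7, the summit lay in a coding exon of HDAC7 in 2 of 6 estradiol regions, 7 of 9 LY500307 regions and 12 of 13 ethanol regions. For the other 9 members together it lay in a coding exon of the member in 1 of 27 estradiol regions, 1 of 12 LY500307 regions and 0 of 3 ethanol regions. Since HDAC7 was chosen for this pattern and its regions are neighbours in 1 gene, the counts are given without intervals. When at least 50% of the bases of a region had to be coding, HDAC7 had 2 such regions with estradiol, 3 with LY500307 and 1 with ethanol, and the other members had none, so the order of the treatments did not hold. Among the 2905 regions of highest fold in each list, HDAC7 had 0 exonic summits with estradiol, 2 with LY500307 and 12 with ethanol. Over whole lists, 5.21% of estradiol, 4.39% of LY500307 and 6.47% of ethanol summits lay in a coding exon of any gene. That is a wider measure than exons of the member itself. Coding exons of any gene, outside promoters and 5′ UTRs, held 5 of 27 estradiol, 2 of 12 LY500307 and 0 of 3 ethanol summits of the other members. Whole lists had 3.28%, 2.99% and 4.37% by that count. The single site in a coding exon of another member itself was at HDAC1, described with that gene. Only 39 of its 473 bases with estradiol were coding. Regions covered 2.70% of the coding bases of HDAC1 and 3.46% of those of HDAC2 with estradiol, 1.73% of those of HDAC1 with LY500307, and no coding base of any other member in any list.

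The same count was made for all genes. At least 1 coding exon held a summit in 6.84% of protein-coding genes with estradiol, 2.14% with LY500307 and 0.879% with ethanol. Summits in at least 3 distinct coding exons were found in 1 gene with estradiol (0.00508% of 19689 genes), 1 with LY500307 (0.00508%) and 2 with ethanol (0.0102%). With estradiol the gene was DAGLA, a lipase gene, with 3 exons. With LY500307 it was HDAC7 with 7 exons, and 12 genes followed with 2. With ethanol HDAC7 had 12 such exons and ESR2 had 7, and each of the 171 other genes with an exonic summit had 1. Among 13938 genes with at least 5 coding exons, HDAC7 ranked 1 by the share of coding bases covered, merged over its transcripts, with both LY500307 (67.3%) and ethanol (85.5%). With estradiol it ranked 685 (12.5%). CCDC85C came close to it with LY500307 at 66.1%, and was at 67.1% with estradiol and 54.0% with ethanol. LEMD2 was at 50.1% with LY500307 and 48.7% with ethanol.

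ESR2 is the gene of which the cells carry an inducible copy. Ethanol regions touched 7 of its 8 coding exons and covered 92.6% of its 1590 canonical coding bases, against 1.07% of its intron bases and 66 of 5252 untranslated bases. The highest ethanol fold in ESR2 was 42.5, at the first coding exon (chr14:64282557-64283015). With LY500307 25.7% and with estradiol 11.4% of its coding bases were covered. Estradiol regions also covered 361 untranslated bases of ESR2. Both genes thus had their coding coverage in the same order, highest with ethanol and lowest with estradiol. Fold went otherwise at ESR2 exon 8, with 31.9 with estradiol, 12.75 with LY500307 and 14.4 with ethanol. At HDAC7 exons 11 and 13 the estradiol fold was the lowest of the 3 lists. The labels mention ER-beta as the introduced gene and do not mention HDAC7. Reads and input libraries were not analysed here. Whether the fragments at HDAC7 exons came from the chromosomal gene or from another copy of its coding sequence was not tested.

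**Figure D4:**
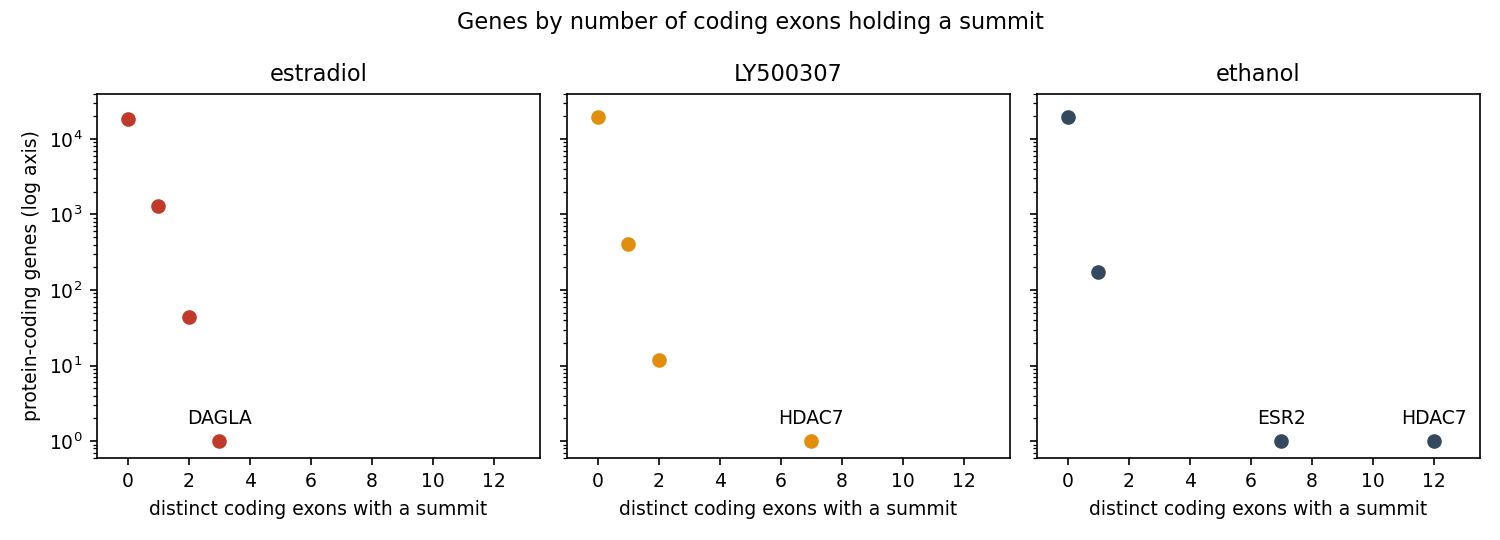
Number of protein-coding genes (vertical log axis) by the number of their distinct coding exons that hold a summit, for estradiol, LY500307 and ethanol. HDAC7 stands at 7 exons with LY500307 and 12 with ethanol, and ESR2 at 7 with ethanol; with estradiol no gene exceeds the 3 exons of DAGLA.

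Sharing between lists also differed between HDAC7 and the rest of the family. Of the HDAC7 regions, 2 of 6 with estradiol, 9 of 9 with LY500307 and 9 of 13 with ethanol overlapped a region of another list, where whole lists had 35.1%, 93.3% and 92.0%. All 9 LY500307 regions of HDAC7 overlapped an ethanol region by at least 1 bp, while 22.9% of the whole LY500307 list did so. Only 2 of these 9 overlapped an estradiol region, against 91.9% of the list. Of the 13 ethanol regions 2 overlapped an estradiol region and 9 an LY500307 region, against 87.0% and 79.8% of the ethanol list. Of the 12 LY500307 regions at the other members, 11 overlapped an estradiol region and 2 an ethanol region. Of their 27 estradiol regions, 11 overlapped an LY500307 region and 2 an ethanol region, against 33.8% and 9.26% of the estradiol list. At the 11 sites of the other members found with both ligands, the estradiol fold was the higher one in 10. At the 2 sites that HDAC7 had with both ligands the LY500307 fold was the higher one. The same count was not made over all sites found with both ligands. Median folds of whole lists were 9.50 with estradiol and 8.46 with LY500307, and the pools were scaled separately.

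The other 4 estradiol regions counted for HDAC7 lay outside it and at its neighbours. The strongest had a fold of 14.0 (chr12:47753423-47753719) and lay in a promoter 0.348 kb from a start site of SLC48A1, a heme transporter gene. A second lay 0.035 kb from another SLC48A1 start site with a fold of 5.81 (chr12:47758928-47759133). The remaining pair lay in introns of VDR, the vitamin D receptor gene, with folds of 7.0 (chr12:47878379-47878611) and 12.1 (chr12:47881817-47882115). Their summits lay 0.648 and 0.995 kb from a VDR start site. None of the 4 overlapped a region with LY500307 or ethanol.

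Among class I genes HDAC1, the deacetylase of the NuRD, Sin3 and CoREST complexes, had 7 estradiol regions, 3 LY500307 regions and 1 ethanol region. The strongest region of the whole family was intergenic, 4.33 kb downstream of HDAC1 and 1.73 kb from the start site of MARCKSL1, a gene for an actin-regulating protein. Its fold was 120.6 with estradiol (chr1:32337731-32338234), rank 324, and 26.2 with LY500307 (chr1:32337770-32338165), rank 1225, and there was no ethanol region. The next among HDAC1 regions lay in exon 14, the last exon of HDAC1, with a fold of 32.5 with estradiol (chr1:32332736-32333208) and 13.3 with LY500307 (chr1:32332855-32333196). In an intron of TSSK3, a testis kinase gene, the fold was 7.15 with estradiol (chr1:32351493-32351796) and 5.78 with LY500307 (chr1:32351523-32351727). The single ethanol region lay in the 5′ UTR of MARCKSL1 with a fold of 6.66 (chr1:32335940-32336139), where the estradiol fold was 7.35 (chr1:32335816-32336182). Estradiol regions without a partner had folds of 4.66, 9.31 and 14.4.

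HDAC2, the close relative of HDAC1, had a region with estradiol alone, in 2 places. One lay in its own promoter, 0.062 kb from a start site, with a fold of 6.50 (chr6:113970748-113971010), and the other in intron 5 with a fold of 8.0 (chr6:113954008-113954283). HDAC3, the deacetylase of the NCoR and SMRT complexes, had 3 estradiol regions and 1 LY500307 region, all upstream of the gene. The nearest was 0.475 kb upstream of its start, within the promoter windows of both HDAC3 and RELL2, with an estradiol fold of 4.55 (chr5:141637220-141637441). The strongest, with an estradiol fold of 12.7 (chr5:141672933-141673225), lay at the promoter of ARAP3, a gene for a GTPase-activating protein. A coding exon of ARAP3 had a fold of 8.05 with estradiol (chr5:141658304-141658573) and 4.96 with LY500307 (chr5:141658269-141658543).

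The other class IIa genes had intronic regions. HDAC4 had 4 estradiol and 2 LY500307 regions, all in intron 2 of its canonical transcript, and none with ethanol. The strongest had a fold of 80.5 with estradiol (chr2:239319222-239319691) and 20.0 with LY500307 (chr2:239319265-239319653). A second had a fold of 33.9 with estradiol (chr2:239268380-239268795) and 13.0 with LY500307 (chr2:239268443-239268736). Estradiol regions without a partner had folds of 13.4 (chr2:239247904-239248217) and 6.50 (chr2:239265011-239265210). HDAC9, the longest member at 915 kb, had 3 intronic estradiol regions, 2 with LY500307 and 1 with ethanol. All of these lay in introns of other transcripts of HDAC9, outside its canonical transcript. A site spanning chr7:18321123-18321496 was the 1 site of the other 9 members found in all 3 lists. Its fold was 5.58 with estradiol, 7.29 with LY500307 and 6.72 with ethanol. Its other sites had folds of 18.9 with estradiol (chr7:18399782-18400160) and 7.21 with LY500307 (chr7:18399866-18400085), and of 17.4 with estradiol alone (chr7:18180768-18181079).

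HDAC5 had 1 region in each list. With estradiol it lay in intron 3 of HDAC5 with a fold of 5.95 (chr17:44095922-44096136). The LY500307 region (chr17:44142083-44142282, fold 5.07) and the ethanol region (chr17:44142023-44142282, fold 5.35) overlapped each other 18.5 and 18.4 kb upstream, in an intron of HROB, a DNA repair gene. Their summits lay 0.187 and 0.125 kb from a start site of HROB. The HROB site was the 1 site of the other 9 members without an estradiol region.

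Neither class IIb gene had a region in its body. HDAC6 had an estradiol region 5.96 kb upstream of its start with a fold of 6.70 (chrX:48795324-48795536). Near the edge of its window, an intergenic site had a fold of 13.6 with estradiol (chrX:48754216-48754720) and 4.69 with LY500307 (chrX:48754342-48754585), beside an estradiol region of fold 10.9. HDAC10 had 4 estradiol and 2 LY500307 regions, all in or near other genes. Those with both ligands lay in PLXNB2, a semaphorin receptor gene. Folds there were 36.0 with estradiol (chr22:50300336-50300696) and 8.79 with LY500307 (chr22:50300379-50300636), and 31.7 with estradiol (chr22:50288575-50288921) and 7.59 with LY500307 (chr22:50288644-50288847). The choice of 50 kb bore on these: the PLXNB2 site of fold 36.0 lay 49.1 kb from HDAC10, just inside. Just outside, 51.4 kb from HDAC1, was a site whose fold was 180.5 with estradiol, 82.9 with LY500307 and 10.7 with ethanol.

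The estrogen response element (ERE), an inverted repeat of GGTCA and TGACC with a spacer of 3 bases, was sought within 100 bp on either side of each summit. With at most 1 mismatch in its 10 fixed bases it was found at 2 of 33 estradiol, 2 of 21 LY500307 and 0 of 16 ethanol summits. Over whole lists 13.8% of estradiol, 15.7% of LY500307 and 15.0% of ethanol summits held it. None of the HDAC7 summits did. With whole regions searched, 3 estradiol, 2 LY500307 and 0 ethanol family regions held a match. The HDAC3 match below also lay inside the estradiol region of that site, more than 100 bp from its summit. The 3 distinct matches are shown on the plus strand of hg38 because they are the closest to the element in the family, with the 13 bases of the match in capitals.
HDAC1, exon 14 (chr1:32333021-32333049, found with estradiol and LY500307): aaggaggaGGTCAAGTTGGCCtgaatgga
HDAC3, upstream in ARAP3 (chr5:141658345-141658373, found at the LY500307 summit): acaggcgtGGTCATACTCACCcagctccc
HDAC4, intron 2 (chr2:239248054-239248082, found with estradiol): tctgtgcgAGTCAGGCTGACCctgccagc

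The 2 strongest sites, at HDAC1 and HDAC4, held no such match. The 101 bases around their estradiol summits are shown for that reason, plus strand, with the half-sites GGTCA and TGACC in capitals. The closest match to the ERE had 3 mismatches at HDAC1 and 2 at HDAC4. The HDAC4 one (chr2:239319480-239319492) begins at the last GGTCA shown and runs past the printed end.
HDAC1, downstream (chr1:32337916-32338016): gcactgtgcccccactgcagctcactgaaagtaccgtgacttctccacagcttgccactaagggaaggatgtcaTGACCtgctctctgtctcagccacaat
HDAC4, intron 2 (chr2:239319390-239319490): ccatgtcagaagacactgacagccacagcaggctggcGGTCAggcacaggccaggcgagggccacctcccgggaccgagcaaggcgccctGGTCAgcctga
A half-site on either strand lay in the same windows at 22 of 27 estradiol, 10 of 12 LY500307 and 1 of 3 ethanol summits of the other 9 members. For HDAC7 it was 4 of 6, 4 of 9 and 8 of 13 in the same order. Whole lists held it at 71.2% of estradiol, 71.6% of LY500307 and 59.4% of ethanol summits, and an ERE contains half-sites. The element of AP-1, a dimer of FOS and JUN factors, was sought as TGACTCA or TGAGTCA and was found at 1 family summit, the estradiol region upstream of HDAC6. In whole lists 13.8% of estradiol, 13.7% of LY500307 and 10.4% of ethanol summits held it. A match or its absence describes these letters in these windows alone.

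Promoters, counted from 1000 bp before to 100 bp after the start of a protein-coding transcript, held 7 of 33 estradiol, 0 of 21 LY500307 and 1 of 16 ethanol family summits. The shares of whole lists were 16.4%, 14.0% and 19.2%. The estradiol ones included the promoters of HDAC2 and HDAC3, and the ethanol one was the internal HDAC7 start named above.

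Genes that work with these enzymes were counted in the same way, from lists made with results of these data known. All 29 genes for scaffolds and subunits of corepressor complexes had a region within 50 kb with estradiol (100%), 23 with LY500307 (79.3%) and 12 with ethanol (41.4%), beside 74.4%, 49.0% and 22.7% of all protein-coding genes. The strongest was near RCOR3, a CoREST scaffold gene, with folds of 186.0 (chr1:211258712-211259423), 83.5 and 29.9 in the same order. Of 12 partners of class IIa enzymes, 8 had a region with estradiol, 6 with LY500307 and 2 with ethanol. Here the strongest was near MEF2A, with folds of 138.1 (chr15:99564813-99565750), 82.5 and 8.85. Of the 7 sirtuins, which are NAD-dependent deacetylases, 6, 5 and 3 had a region. SIRT6 led with estradiol (fold 90.2) and LY500307 (32.9), and SIRT7 with ethanol (12.9). HDAC11, the class IV enzyme, had a region in all 3 lists, with highest folds of 45.1, 16.8 and 8.61. Of these 49 genes, no gene had summits in more than 1 coding exon with estradiol or LY500307, and none had 1 with ethanol. Of all 19689 protein-coding genes, 45 with estradiol and 13 with LY500307 had summits in at least 2 coding exons. With ethanol 0.879% had a summit in at least 1. Such genes were rare in every list, so their absence among 49 genes does not set the partners apart.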

How the data were processed

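Per the submitters' processing notes, Bowtie2 2.2.6, MACS2 2.1.1.20160309, DiffBind and hg38 were used, with no role given for each. The deposited files are 3 narrowPeak lists. Each treatment has 1 list, named in the labels of its 4 ChIP libraries. How many libraries were pooled is not stated, and the protocol speaks of triplicates. The deposited fold is the authors' enrichment ratio at a summit over local background. The deposited -log10 q comes from the authors' peak caller, and the deposited display score was not used. Read totals are not in the lists, so depth is unknown.

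Records on the autosomes, X and Y were retained (26861 of 26896 estradiol, 10045 of 10059 LY500307 and 2905 of 2911 ethanol records). Positions were counted from 1. Genes, coding exons and canonical transcripts came from GENCODE 44, and 19689 protein-coding genes were used. Ranks are by fold. The members, gene lists and rules were chosen with earlier results of these data known. Regions named in the text are all LY500307 and ethanol regions of the members. Of the estradiol regions, the one of highest fold per member, those in coding exons and those with an ERE are named, and others are given with their neighbours. Genes outside the family are those with summits in the most coding exons, at most 5 per list, genes next to regions, and the partner lists. CCDC85C and LEMD2 were named from the share of coding bases covered, where they ranked 2 and 3 with LY500307. An overlap of at least 1 bp made regions shared. Exon counting and motif search were tested on simulated data. Computations used Python 3.11.15, numpy 2.4.6, pandas 2.3.3, scipy 1.17.1, pysam 0.24.0 and matplotlib 3.10.9.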

Additional observations from a re-analysis of the deposited data

How the results depend on the processing

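Of 77 alternatives to 27 counts, 54 stayed within 1.5 times the value in the report. No difference was tested, so turned directions were not counted. The order of the treatments could still change, as it did for the exon count below. Family regions with estradiol, 33 in the report, were 20 within 20 kb, 65 within 100 kb and 13 in gene bodies. Members with a region were 5 within 20 kb and 4 in gene bodies with LY500307, and 2 in gene bodies with ethanol. The exon count depended on what must lie in the exon. With at least 50% of the bases of a region in coding exons instead of its summit, HDAC7 had 2 estradiol, 3 LY500307 and 1 ethanol regions, so that ethanol was lowest, and the other members had 0 with estradiol and 0 with LY500307. The regions ran past the exon edges by a median of 65.5 bp with LY500307 and 102 bp with ethanol. Among as many highest-fold regions as the ethanol list holds, a choice made after seeing the data, HDAC7 had 0 exonic summits with estradiol and 2 with LY500307, against 12 with ethanol. With at least 50% of both regions overlapping, 1 estradiol region of HDAC7 was shared. Without a mismatch 0 estradiol and 0 LY500307 family summits held an ERE, and with at most 2 mismatches 13 estradiol, 10 LY500307 and 5 ethanol summits did. A promoter of 2500 bp on both sides held 17 estradiol, 7 LY500307 and 5 ethanol summits. At least 2 distinct coding exons held a summit in 45 genes with estradiol and 13 with LY500307. A -log10 q of at least 5, tried for family regions, members with a region and exonic summits, and a fold of at least 5, tried for family regions, moved none of those counts past 1.5 times. No paired analysis was possible because each treatment has 1 pooled list, and for the same reason no replicate could be left out.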
